A study of Mus musculus with 24 samples.

Results

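Claudin genes were described in a profile of histone H3 trimethylated at lysine 4 (H3K4m3), a mark of active and poised promoters, in 4 mouse organs. The 10 genes Cldn1, Cldn2, Cldn4, Cldn5, Cldn7, Cldn8, Cldn10, Cldn14, Cldn16 and Cldn19 were chosen by symbol to represent the nephron, the liver and the endothelium, and were found among the 27179 genes of the table. All 10 passed the filter on low values. The tissue came from brain, heart, kidney and liver of mice, and was either fixed in formalin and embedded in paraffin (FFPE) or flash frozen. The labels name no strain, sex or age, and no genotype or treatment other than preservation. They list 12 H3K4m3 and 12 input samples. The table had 1 column for each organ and preservation type, called a library here, so that each organ had 2 libraries and each preservation type 4. Each organ has 2 FFPE samples for H3K4m3 in the labels, and the sources do not tell whether its FFPE column joins them. No column was named as input. No label ties the libraries to different animals. The p-values therefore reflect only how these libraries vary, and that variation may be technical. Each organ and preservation type had 1 library. The spread behind these p-values was thus how the difference between FFPE and frozen varied between organs. That spread was partly pooled over genes.

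Claudins are membrane proteins of the tight junction, the seal between neighbouring epithelial or endothelial cells. Their extracellular loops meet across the gap between cells and set which ions and molecules pass. Some claudins close the gap, and others form pores for particular ions, so that each nephron segment has the permeability of the claudins it makes. In the kidney they carry much of the reabsorption of sodium, chloride, magnesium and calcium between cells. In the liver they separate bile from blood, and in vessels they limit leakage from the blood.

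Values are the deposited log2 values, or CPM, the reads of a gene scaled to a common library size, with no log and no pseudocount. Sums over marker lists are the exception. They add up deposited values with the log undone, and so keep the pseudocount of 0.5 reads for each gene. FFPE libraries held 3388631 to 5275085 reads and frozen libraries 1792394 to 2976029 reads. A count of 0 allowed up to 3 reads, between 0.537 and 1.69 CPM. The members had between 184 reads (Cldn16) and 1455 reads (Cldn1) over all libraries, and none was at 0 in any library. Intervals below are exact 95% binomial intervals and cover counting error only. The sources used here do not say over which part of a gene reads were counted, so levels are compared between libraries for 1 gene and not between genes. Markers of several cell types followed the organ labels. In brain 10 of 10 neuron markers passed as higher, and in heart 6 of 10 cardiomyocyte markers. In liver 10 of 10 hepatocyte markers did. In kidney 3 of 10 proximal tubule and 4 of 7 thick ascending limb markers did, but 1 of 12 distal tubule and collecting duct markers. Of all tested genes 5.53% passed as higher in brain, 1.72% in heart, 5.13% in liver and 0.802% in kidney. Outside their own organ, 1 cardiomyocyte marker passed as higher in brain and 1 oligodendrocyte marker in liver. Of the 6 podocyte markers 1 did in heart, 1 in liver and none in kidney. Of 7 bile duct markers 4 did in kidney and 1 in liver. In whole organs, fewer cells of a type and less H3K4m3 per cell cannot be told apart.

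The starts of the genes are shown because H3K4m3 lies around transcription start sites, often those rich in CG dinucleotides. Promoter windows of 300 bases, 250 before and 50 after an annotated start, were taken from RefSeq on GRCm38, the assembly that mm10 denotes. Of the 10 members, 9 had a window, with 14 windows in all. Cldn8 had none. The median over all 32851 windows was 7 CG dinucleotides. Cldn10 had the widest contrast within 1 gene, which is transcribed from separate starts. Its first window held 4 CG dinucleotides and 36% G or C, and its second 27 and 72%, and 84.5% of all windows held fewer than 27. Cldn1 had 15, Cldn5 12, Cldn4 9 and Cldn2 5. The 250 bases before the start are printed 5′ to 3′ on the strand of the gene, with CG dinucleotides in capitals, for members that were highest in kidney (Cldn10, Cldn4), in liver (Cldn1), in both of these organs (Cldn2) and in heart (Cldn5). The stretch of Cldn10 at its first start, chr14:118787621-118787870, plus strand, and that at its second start, chr14:118854700-118854949, plus strand, are followed by Cldn4 (chr5:134946935-134947184, minus strand), Cldn1 (chr16:26371840-26372089, minus strand), Cldn2 (chrX:139800558-139800807, plus strand) and Cldn5 (chr16:18776597-18776846, plus strand).
Cldn10 first start: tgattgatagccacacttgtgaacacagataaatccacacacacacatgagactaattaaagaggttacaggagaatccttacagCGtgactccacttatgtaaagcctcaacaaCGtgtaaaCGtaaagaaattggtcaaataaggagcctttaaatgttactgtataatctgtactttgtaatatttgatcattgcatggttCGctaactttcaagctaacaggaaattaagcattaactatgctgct
Cldn10 second start: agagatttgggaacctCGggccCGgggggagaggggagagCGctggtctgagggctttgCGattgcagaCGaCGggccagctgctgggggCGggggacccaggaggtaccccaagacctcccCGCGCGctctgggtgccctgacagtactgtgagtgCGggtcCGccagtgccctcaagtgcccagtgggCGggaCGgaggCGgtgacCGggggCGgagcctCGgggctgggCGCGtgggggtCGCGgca
Cldn4: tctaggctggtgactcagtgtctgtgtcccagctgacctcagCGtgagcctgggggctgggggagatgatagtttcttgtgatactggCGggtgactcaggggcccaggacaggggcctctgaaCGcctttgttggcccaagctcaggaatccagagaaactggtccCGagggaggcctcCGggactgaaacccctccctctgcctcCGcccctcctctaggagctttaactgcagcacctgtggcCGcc
Cldn1: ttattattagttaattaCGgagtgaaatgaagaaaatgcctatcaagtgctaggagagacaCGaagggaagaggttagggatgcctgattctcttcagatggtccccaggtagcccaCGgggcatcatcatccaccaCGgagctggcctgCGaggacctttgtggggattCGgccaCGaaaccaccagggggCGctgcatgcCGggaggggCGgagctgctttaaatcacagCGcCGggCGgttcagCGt
Cldn2: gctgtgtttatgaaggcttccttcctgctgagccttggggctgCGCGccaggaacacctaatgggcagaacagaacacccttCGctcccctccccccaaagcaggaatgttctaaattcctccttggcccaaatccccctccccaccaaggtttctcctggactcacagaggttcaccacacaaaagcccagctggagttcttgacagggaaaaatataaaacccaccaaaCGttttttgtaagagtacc
Cldn5: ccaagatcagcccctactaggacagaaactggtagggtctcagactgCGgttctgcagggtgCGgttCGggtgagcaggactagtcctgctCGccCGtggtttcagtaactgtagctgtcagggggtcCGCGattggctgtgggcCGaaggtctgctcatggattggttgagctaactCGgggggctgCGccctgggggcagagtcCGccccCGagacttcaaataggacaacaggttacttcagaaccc

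Within the full windows, 5 short motifs were searched on both strands. The TATA motif TATAAA matched in Cldn2, 35 bases before the start, and in 13.6% of all windows. GTTAAT, an HNF1 half-site, matched in Cldn1, in the first window of Cldn10 and in the third of Cldn14, and in 7.1% of all windows. ATTGG, the reverse complement of the CCAAT box, matched at 2 places in Cldn5 and also in Cldn10 and Cldn14, and in 37.4% of all windows. The ETS motif CCGGAAG matched in both windows of Cldn7 and in 8.86% of all windows. The grainyhead motif AACCNGGTT matched in no member and in 0.271% of all windows. The motifs do not contain one another, and a match describes the letters and not a bound site.

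Kidney stood above the other organs at Cldn8, Cldn7 and Cldn4, claudins of the distal nephron, and at Cldn10. Differences were tested with limma, in 1 model of organ and preservation over all 25680 genes that passed the filter, with an organ set against the average of the 3 remaining ones. The p-values were adjusted by the Benjamini-Hochberg method across every tested gene, and a gene passed below 0.05. In kidney 5 of the 10 members passed, all as higher: Cldn8, Cldn7, Cldn4, Cldn10 and Cldn2. Of all tested genes 1.21% passed in kidney, 0.802% as higher and 0.405% as lower. The median log2 difference was 1.72 over the 10 members and 0.02 over all tested genes. Both kidney libraries lay above the other 6 libraries at 6 members, these being Cldn4, Cldn7, Cldn8, Cldn10, Cldn16 and Cldn19, against 2.85% of all tested genes. At no member did both lie below the other 6, against 1.14% of all tested genes.

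Cldn8, which forms a chloride pathway together with claudin-4 in the collecting duct (gene ID 54420, chromosome 16, 88560826 to 88563183), had the largest kidney difference of the members. It had 81.0 CPM in FFPE kidney and 119.5 CPM in frozen kidney. The other libraries had 14.2 CPM in FFPE liver, 7.06 in frozen liver, 10.1 in FFPE heart, 5.64 in frozen heart, 7.59 in FFPE brain and 5.4 in frozen brain. No kidney value came near those of the other organs, whose order overlapped. The mean log2 value was 6.62 ± 0.40 in kidney (SD, n = 2), and the log2 difference from the other organs was 3.61 ± 0.36 (SE), 12.2-fold, with a limma adjusted p of 0.000237. Cldn7, a collecting duct claudin whose loss makes mice waste salt (gene ID 53624, chromosome 11, 69964779 to 69967886), had 62.1 CPM in FFPE kidney and 68.6 CPM in frozen kidney. It had between 7.45 CPM in frozen liver and 17.8 CPM in FFPE heart elsewhere. The log2 difference was 2.35 ± 0.31, 5.08-fold (limma adjusted p = 0.00168). Cldn4, the partner of claudin-8 (gene ID 12740, chromosome 5, 134945123 to 134946934), had 42.2 CPM in FFPE kidney and 44.7 CPM in frozen kidney, and between 3.39 CPM in frozen heart and 13.1 CPM in FFPE liver elsewhere. The log2 difference was 2.50 ± 0.40, 5.64-fold (limma adjusted p = 0.00582). The FFPE and frozen kidney libraries were close together at Cldn7 and Cldn4, while at Cldn8 the frozen library was the higher one. The kidney means had SDs of 0.40 for Cldn8, 0.10 for Cldn7 and 0.06 for Cldn4 on the log2 scale.

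**Figure D1:**
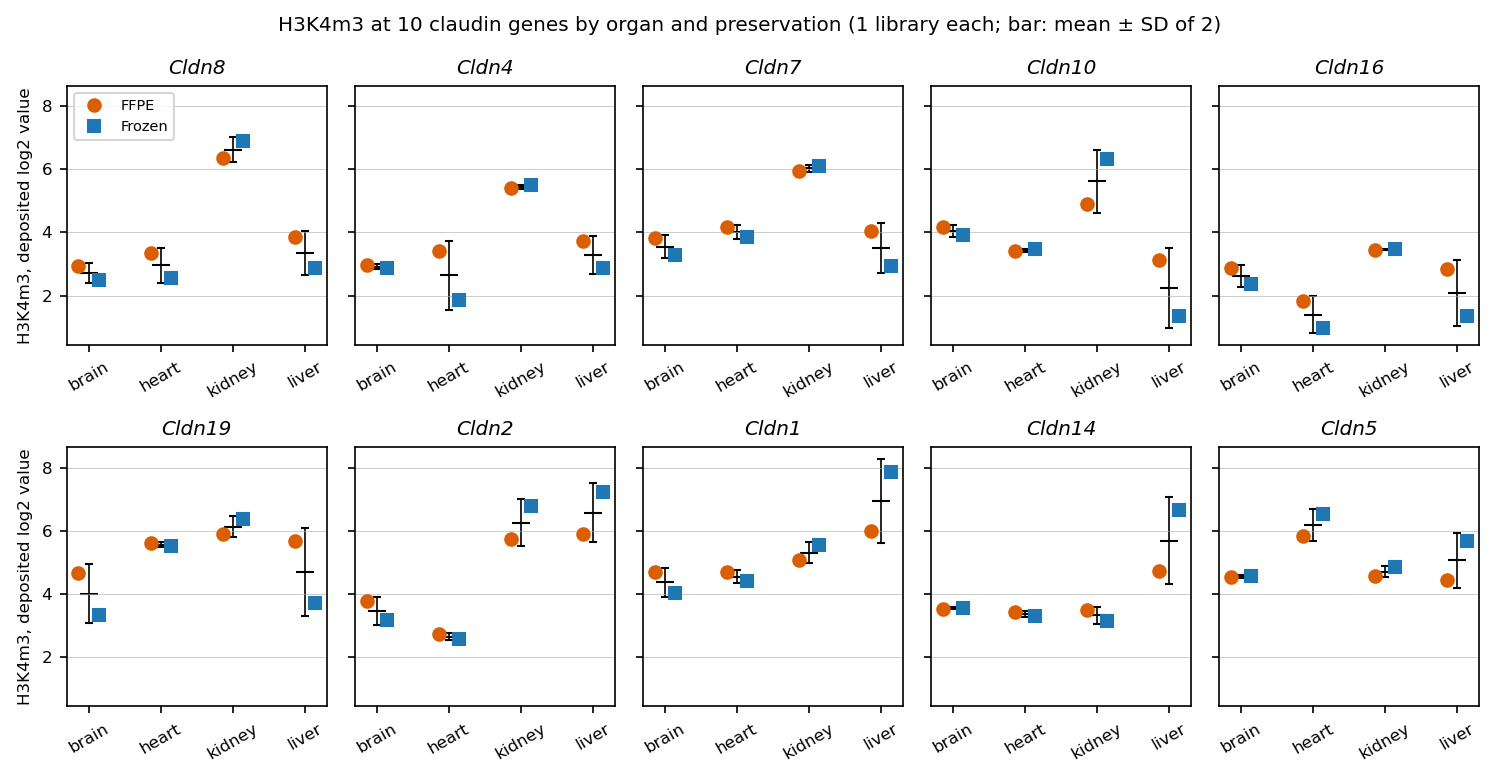
Deposited log2 H3K4m3 values of the 10 claudin genes in each library, by organ; circles are FFPE and squares frozen libraries, and black bars show the mean ± SD of the 2 libraries of an organ. Cldn8, Cldn4, Cldn7, Cldn10, Cldn16 and Cldn19 are highest in kidney, Cldn2 is high in kidney and liver, Cldn1 and Cldn14 are highest in liver, and Cldn5 is highest in heart.

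Claudins of the loop of Henle were less uniform. Cldn10 (gene ID 58187, chromosome 14, 118787871 to 118874525) encodes isoforms with different first exons, one a cation pore of the thick ascending limb and another an anion pore of the proximal tubule. The table gave 1 value for the gene, so the isoforms could not be separated. Cldn10 had 30.1 CPM in FFPE kidney and 79.8 CPM in frozen kidney. It had 18.0 CPM in FFPE brain and 15.0 in frozen brain, 10.4 in FFPE heart and 10.7 in frozen heart, and 8.64 in FFPE liver and 2.35 in frozen liver. The organs took the same order, kidney, brain, heart and liver, in FFPE and in frozen tissue, and no organ overlapped its neighbour. Kidney was 5.2-fold above the other organs, at a log2 difference of 2.38 ± 0.47 (limma adjusted p = 0.0236), and liver was below them, at -2.13 ± 0.47 (limma adjusted p = 0.0103). The frozen liver value rested on 6 reads, with an interval of 0.864 to 5.12 CPM.

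Cldn16 and Cldn19 encode partners that carry magnesium and calcium between cells of the thick ascending limb, and mutations in either cause urinary loss of both ions in humans. Cldn16 (gene ID 114141, chromosome 16, 26463135 to 26482765) had 10.7 CPM in FFPE kidney and 10.8 CPM in frozen kidney. It had 7.21 CPM in FFPE brain and 4.99 in frozen brain, 7.00 in FFPE liver and 2.35 in frozen liver, and 3.37 in FFPE heart and 1.69 in frozen heart. The kidney libraries lay above all others, but the counts were low, with 60 and 24 reads in FFPE and frozen kidney and 3 reads in frozen heart (interval 0.349 to 4.95 CPM). The log2 difference of kidney was 1.41 ± 0.51 and did not pass (limma adjusted p = 0.3). Cldn19, also made by Schwann cells and the retinal pigment epithelium (gene ID 242653, chromosome 4, 119255441 to 119262438), had 59.2 CPM in FFPE kidney and 82.1 CPM in frozen kidney. It had 48.7 CPM in FFPE heart and 45.2 in frozen heart, 51.1 in FFPE liver and 12.9 in frozen liver, and 25.2 in FFPE brain and 9.97 in frozen brain. Heart was next to kidney at this gene, and the liver libraries lay on either side of heart. The kidney difference was 1.37 ± 0.36 and did not pass (limma adjusted p = 0.0991). It passed after quantile normalization, and without FFPE kidney, FFPE liver or frozen liver, with adjusted p of 0.0129, 0.046, 0.00268 and 0.0375 in that order.

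The nephron markers of these segments were read beside the claudins. Of 7 thick ascending limb markers, 4 passed as higher in kidney, with a median log2 difference of 1.59. They included Umod, which encodes uromodulin, at 2.88 ± 0.42, and the sodium-potassium-chloride cotransporter Slc12a1 at 1.59 ± 0.30. Summed over the list, kidney libraries had 334 to 442 CPM and the other libraries 111 to 182 CPM on the deposited scale. Of 12 markers of the distal tubule and collecting duct, 1 passed, the vasopressin receptor gene Avpr2 at 2.66 ± 0.52, with a median of 0.37. That list summed to 237 to 352 CPM in kidney and to 154 to 279 CPM elsewhere. Of 6 podocyte markers none passed in kidney with limma, and of 7 bile duct markers, which tubules also express in part, 4 passed as higher and 1 as lower. Their part in the claudin values was not tested.

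Without frozen kidney none of the 10 members and 0 of all tested genes passed with limma, 4 and 557 at an unadjusted p under 0.05, so the count of members there says nothing particular to them. Their log2 differences in that fit were 2.96 for Cldn8, 2.04 for Cldn4, 1.94 for Cldn7, 1.59 for Cldn2 and 1.34 for Cldn10. Cldn10 also failed without FFPE brain, frozen brain, FFPE heart or frozen heart (adjusted p of 0.0579, 0.087, 0.0763 and 0.0847) and without the filter on low values (0.0556). With 1 prior spread for all genes in place of the intensity trend, 0 of the 10 members passed with limma in any of the 6 comparisons, and between 0 and 7 were at an unadjusted p under 0.05.

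Cldn2 was high in kidney and liver alike. It encodes a pore for cations and water and is known from the proximal tubule and from hepatocytes (gene ID 12738, chromosome X, 139800808 to 139811386). Cldn2 had 59.8 CPM in FFPE liver and 150.3 CPM in frozen liver, and 53.0 CPM in FFPE kidney and 110.1 CPM in frozen kidney. It had 13.7 CPM in FFPE brain and 8.73 in frozen brain, and 6.43 in FFPE heart and 5.64 in frozen heart. Liver and kidney overlapped each other, both lay above brain, and brain lay above heart. With kidney and liver set together against brain and heart, the log2 difference was 3.36 ± 0.30, 10.2-fold (SE, 4 libraries each, limma adjusted p = 4.33e-05). Each organ alone was also apart from the mean of the others, kidney at 2.03 ± 0.34, liver at 2.44 ± 0.34, heart at -2.79 ± 0.34 and brain at -1.69 ± 0.34, with limma adjusted p of 0.00953, 0.000711, 0.00126 and 0.00508. Of 10 proximal tubule markers, 3 passed as higher in kidney, Miox at 3.05 ± 0.49, the phosphate transporter Slc34a1 at 2.55 ± 0.49 and the urate transporter Slc22a12 at 2.27 ± 0.30.

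Liver was highest at Cldn1 and Cldn14, apart from every other organ. In liver 3 members passed as higher, these and Cldn2, which overlapped kidney, and 2, Cldn10 and Cldn7, as lower. Of all tested genes 9.96% passed in liver, 5.13% as higher and 4.84% as lower. The median log2 difference was -0.39 over the members and -0.01 over all tested genes. Both liver libraries lay above all others at 2 members, Cldn1 and Cldn14, against 5.12% of all tested genes, and below all others at 1, Cldn10, against 4.44%.

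Cldn1, a sealing claudin that in human hepatocytes also serves entry of hepatitis C virus (gene ID 12737, chromosome 16, 26356645 to 26371839), had 63.5 CPM in FFPE liver and 234.2 CPM in frozen liver. It had 33.5 CPM in FFPE kidney and 46.5 in frozen kidney, 25.7 in FFPE heart and 20.9 in frozen heart, and 25.8 in FFPE brain and 16.2 in frozen brain. Liver lay above kidney and kidney above heart, while heart and brain overlapped. The log2 difference of liver was 2.19 ± 0.36, 4.57-fold (limma adjusted p = 0.00177). Cldn14, which is known from the inner ear and from the thick ascending limb under high calcium (gene ID 56173, chromosome 16, 93919031 to 94008837), had 26.1 CPM in FFPE liver and 101.2 CPM in frozen liver. The other 6 libraries lay between 8.57 CPM in frozen kidney and 11.6 CPM in frozen brain. Liver stood alone at this gene, with kidney lowest by its mean, at a log2 value of 3.32 ± 0.26 (SD, n = 2). The log2 difference of liver was 2.28 ± 0.41, 4.85-fold (limma adjusted p = 0.0033). Cldn7 in liver, at 16.6 CPM in FFPE and 7.45 CPM in frozen tissue, differed by -1.03 ± 0.31 (limma adjusted p = 0.0474). Its liver libraries overlapped those of brain, and the value is set against a mean that includes kidney.

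Hepatocyte markers passed as higher in liver for 10 of 10 genes with a median of 2.54, and summed to 435 to 1363 CPM in liver against 95.9 to 169 CPM elsewhere. In both liver claudins and hepatocyte markers the frozen library was the higher one. Without frozen liver, which left 1 liver library, fewer members passed, as did fewer of all tested genes. The log2 differences of Cldn1, Cldn14 and Cldn10 in that fit were 1.17, 1.23 and -1.03, and these genes did not pass in it. Cldn10 did not pass with precision weights (limma adjusted p = 0.0773). Cldn7 did not pass in 4 of 6 alternative analyses, or when any library except FFPE liver was left out, with adjusted p between 0.0648 and 0.525 in those settings.

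Heart was distinguished by Cldn5, the main claudin of endothelial cells, best known for the blood-brain barrier (gene ID 12741, chromosome 16, 18776847 to 18778262). In heart 1 member passed as higher, Cldn5, and 1 as lower, Cldn2, where 1.72% and 0.853% of all tested genes did and 2.57% passed in either direction. Both heart libraries lay above all others at Cldn5, against 4.18% of all tested genes, and below all others at Cldn2, against 2.41%. Cldn5 had 57.0 CPM in FFPE heart and 93.1 CPM in frozen heart. It had 21.7 CPM in FFPE liver and 51.0 in frozen liver, 23.8 in FFPE kidney and 28.4 in frozen kidney, and 22.9 in FFPE brain and 23.7 in frozen brain. Liver, kidney and brain overlapped, and frozen liver was the library nearest to heart. The log2 difference was 1.42 ± 0.25, 2.67-fold (SE, 2 heart and 6 other libraries, limma adjusted p = 0.0102). Cldn5 no longer passed without FFPE heart, at 1.51 with an adjusted p of 0.0978, or without frozen heart, at 1.32 with an adjusted p of 0.375. Without frozen heart, which left 1 heart library, no member and hardly any of all tested genes passed with limma. Without FFPE liver more members passed, and more of all tested genes did too.

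Endothelial markers were read beside Cldn5. Of 13 markers, 9 passed as higher in heart with a median of 1.19, among them Kdr, a receptor for vascular growth factor, at 1.52 ± 0.17 and Pecam1 at 1.62 ± 0.22. They summed to 948 to 1045 CPM in heart and to 262 to 624 CPM elsewhere. The other 4, Vwf, Erg, Emcn and Cdh5, were at 0.09, 0.40, 0.50 and 0.96 and are named because they did not pass. In brain 8 of the 13 passed as lower, against 4.53% of all tested genes, with a median of -1.16. For FFPE against frozen, 4 passed as higher and none as lower, against 16.5% and 21.3% of all tested genes. The median of the 13 markers was 0.38, where Cldn5 was at -0.56 and did not pass. Cldn5 in brain was at -0.77 ± 0.25 and did not pass (limma adjusted p = 0.0725). Its brain value passed after quantile normalization and without FFPE liver, with adjusted p of 0.0471 and 0.00413. Cldn5 in kidney was at -0.56 ± 0.25 and in liver at -0.09 ± 0.25, and neither passed. The part of endothelial content in the heart value of Cldn5 was not tested.

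In brain 4 members passed, all as lower: Cldn2 at -1.69 ± 0.34, Cldn8 at -1.60 ± 0.36, Cldn19 at -1.46 ± 0.36 and Cldn1 at -1.23 ± 0.36 (limma adjusted p of 0.00508, 0.00934, 0.0181 and 0.0435). Of all tested genes 10.1% passed in brain, 5.53% as higher and 4.53% as lower. At none of the 10 members did both brain libraries lie below all others, against 4.64% of all tested genes, or above all others, against 7.56%. The values are set against a mean that includes kidney or liver, where these genes were high. The brain calls were few without some libraries, with 2 members passing when FFPE brain or frozen heart was left out, 1 when frozen kidney was, and 0 when frozen brain was (limma, 2 at an unadjusted p under 0.05). The count over all tested genes was also lower in each of these fits. With precision weights the brain calls numbered 2, Cldn2 and Cldn8, where 2213 of the 25680 tested genes passed. At Cldn10, Cldn14 and Cldn16 brain had the highest mean but one, and Cldn10 and Cldn16 in brain were at 0.29 ± 0.47 and 0.31 ± 0.51 and did not pass.

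Set together, kidney and liver stood above brain and heart. Of the 10 members 5 passed, all as higher, against 8.75% of all tested genes in either direction, 4.09% as higher and 4.67% as lower. These were Cldn2, Cldn8 at 2.15 ± 0.31, Cldn1 at 1.66 ± 0.31, Cldn4 at 1.59 ± 0.34 and Cldn7 at 0.98 ± 0.27. The kidney and liver libraries lay above all brain and heart libraries at 2 members, Cldn1 and Cldn2, against 2% of all tested genes, and below them at none, against 2.33%. At Cldn8, Cldn4 and Cldn7 the liver libraries overlapped brain and heart, so that the difference came with the kidney libraries. Cldn5 was at -0.49 ± 0.22 and Cldn10 at 0.19 ± 0.41, and neither passed (limma adjusted p of 0.218 and 0.86). Cldn2 and Cldn8 passed whichever library was left out. The count dropped to 3 when frozen brain or frozen kidney was left out and to 2 when frozen heart was. The count over all tested genes dropped in those fits as well. Cldn7 did not pass with precision weights or when any library other than FFPE liver or frozen liver was left out.

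**Figure D2:**
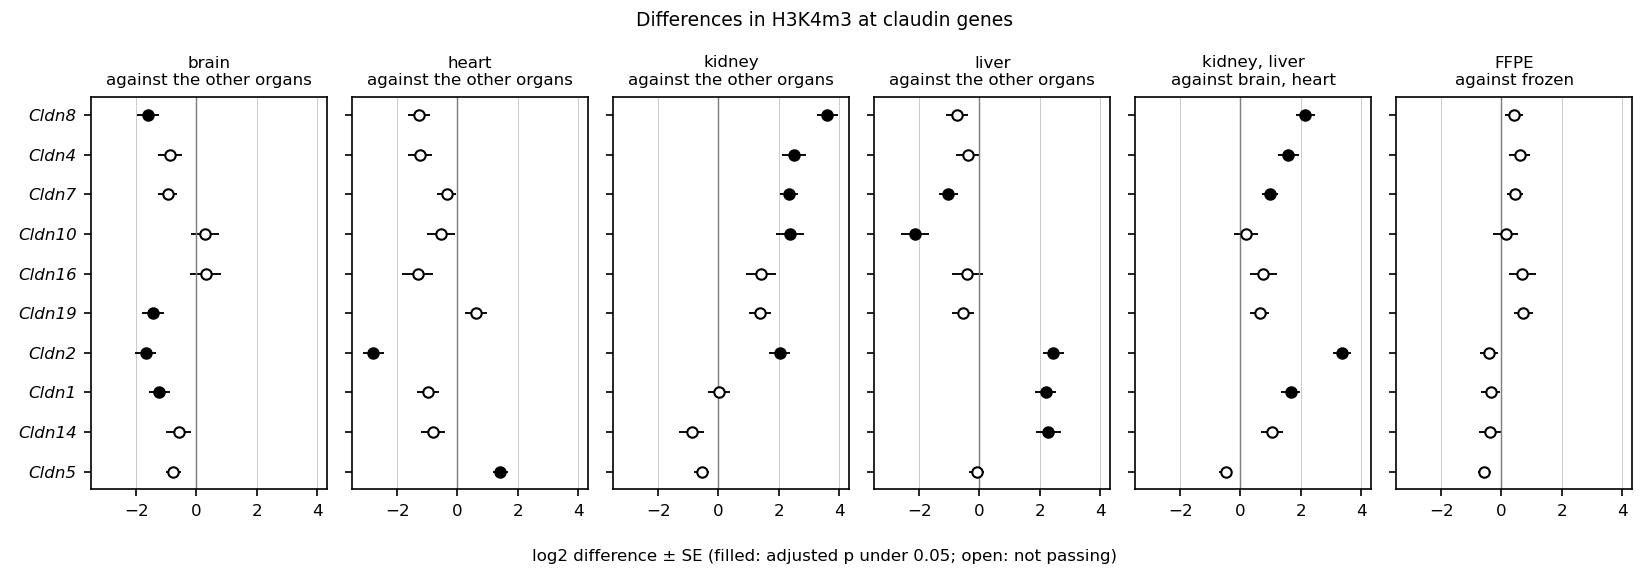
Log2 differences ± SE of the 10 claudin genes from limma in the 6 comparisons, with genes down the page; filled points passed at an adjusted p under 0.05 over all tested genes and open points did not. Filled points lie right of 0 for 5 genes in kidney, 3 in liver, 1 in heart and 5 for kidney and liver against brain and heart. They lie left of 0 for 4 genes in brain, 2 in liver and 1 in heart, and no point is filled for FFPE against frozen.

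Preservation was compared within organs, each FFPE library against the frozen library of its organ. None of the 10 members passed with limma, 2 at an unadjusted p under 0.05, against 37.8% of all tested genes, 16.5% as higher and 21.3% as lower. At none did the 4 FFPE libraries lie all above or all below the 4 frozen ones, which 13.1% and 17.1% of all tested genes did. With precision weights 4 passed as lower in FFPE, these being Cldn1, Cldn2, Cldn5 and Cldn14. In that fit 5910 of the 25680 tested genes passed as lower and 3768 as higher. The differences lay between 0.73 ± 0.31 for Cldn19 and -0.56 ± 0.22 for Cldn5 (limma adjusted p of 0.0802 and 0.0542). The median of all tested genes was 0.18 as deposited and 0.00 after quantile normalization. Cldn19 passed after quantile normalization and without either kidney library. Cldn5 passed with centred libraries, a pseudocount of 2 reads or precision weights, and without either brain library. The model fits 1 FFPE difference for the 4 organs together. Its variation by organ is the spread that the test rests on, and could not itself be tested. In liver the log2 value in FFPE minus that in frozen tissue was -1.95 for Cldn14, -1.88 for Cldn1, -1.33 for Cldn2 and -1.23 for Cldn5. It was 1.96 for Cldn19, 1.78 for Cldn10, 1.48 for Cldn16, 1.13 for Cldn7, 0.98 for Cldn8 and 0.86 for Cldn4. The negative values thus belonged to the liver claudins and Cldn5, and the positive ones to the claudins highest in kidney. In kidney the differences were -1.41 for Cldn10, -1.06 for Cldn2 and -0.56 for Cldn8. These values have 1 library on each side and no test.

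The spread over organs was narrower in FFPE than in frozen tissue for all 10 members. Highest minus lowest organ, the median log2 range was 1.70 in FFPE and 3.57 in frozen libraries, and the ratio of the ranges averaged 0.562 ± 0.172 (SD over 10 genes, from 0.338 to 0.77). Over all tested genes 70.7% had a narrower range in FFPE, with medians of 0.78 in FFPE and 1.11 in frozen libraries. The frozen libraries were shallower, and the part of depth in this was not tested. Kidney minus the mean of the other organs was 2.96 in FFPE and 4.27 in frozen libraries for Cldn8, 2.04 and 2.96 for Cldn4, and 1.94 and 2.75 for Cldn7. It was 1.34 in FFPE and 3.41 in frozen libraries for Cldn10. Liver minus the mean of the others was 1.17 in FFPE and 3.21 in frozen libraries for Cldn1, and 1.23 and 3.33 for Cldn14. Heart minus the mean of the others was closer for Cldn5, at 1.32 in FFPE and 1.51 in frozen libraries. The FFPE values, and the frozen value of Cldn5, repeat the differences given above for fits without the other library of that organ. They are not a separate result. The organ with the highest value was the same in FFPE and frozen tissue for all 10 members. The share of all tested genes for which this held was not computed.

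**Figure D3:**
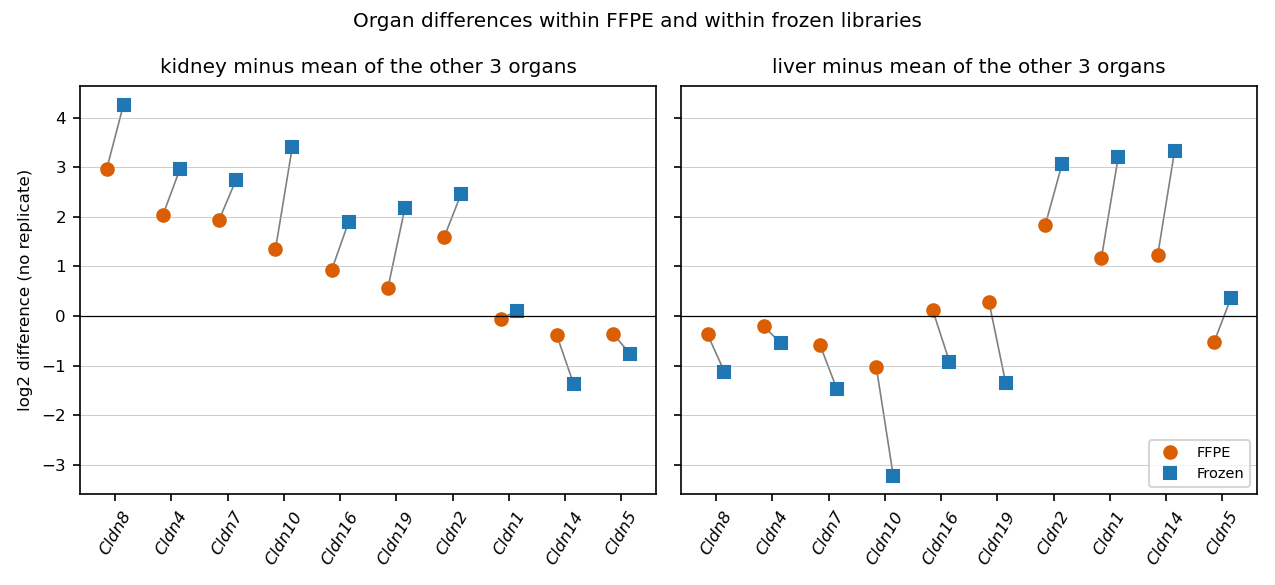
Log2 difference of kidney (left) and liver (right) from the mean of the other 3 organs for each claudin gene, computed within the FFPE libraries (circles) and within the frozen libraries (squares), with no replicate. FFPE values lie nearer to 0 than frozen values at Cldn8, at 2.96 in FFPE against 4.27 in frozen kidney, and at Cldn14, at 1.23 in FFPE against 3.33 in frozen liver.

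Of 20 further claudins 19 were tested. In brain 2 passed, 1 in each direction, and in liver 1, where 10.1% and 9.96% of all tested genes did. None passed in kidney or heart with limma, where 1.21% and 2.57% of all tested genes did, and 2 and 1 were at an unadjusted p under 0.05. Cldn3, a sealing claudin of liver and gut, was higher in liver at 3.00 ± 0.35 and lower in brain at -2.44 ± 0.35. Cldn11, the claudin of myelin, was higher in brain at 1.72 ± 0.45 (limma adjusted p = 0.0243). For kidney and liver against brain and heart 1 passed, Cldn3 as higher at 2.72 ± 0.31, where 8.75% of all tested genes did. For FFPE against frozen, 1 passed as higher and 2 as lower, where 16.5% and 21.3% of all tested genes did. Cldn12 and Cldn23 were lower in FFPE at -0.78 ± 0.14 and -0.67 ± 0.19, and Cldn34d was higher. The difference between the members and the other claudins was not tested.

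Of 30 other tight junction genes, 8 passed as higher and 2 as lower in kidney and liver against brain and heart, with a median of 0.26, and 8.75% of all tested genes passed there. Crb3, which sets apical polarity, was higher at 2.40 ± 0.37 and Wnk4, a kinase of the distal nephron that acts on claudins, at 0.94 ± 0.15. Magi2, a scaffold of synapses and podocytes, was lower at -1.04 ± 0.14. In kidney 2 passed as higher, against 1.21% of all tested genes in either direction, Wnk4 at 1.48 ± 0.17, and Cgnl1 at 0.77 ± 0.17. In liver 2 passed as higher and 1 as lower, a share near the 9.96% of all tested genes, with Tjp3 at 1.24 ± 0.26, Lsr, which marks corners where 3 cells meet, at 1.12 ± 0.24, and Magi2 at -1.12 ± 0.16. In heart 2 passed as higher and 5 as lower, against 2.57% of all tested genes. The endothelial adhesion gene Esam was higher at 1.31 ± 0.25, and Crb3 and Ocln, which encodes occludin, were lower at -2.12 ± 0.43 and -1.63 ± 0.35. In brain 3 passed as higher and 5 as lower, against 10.1% of all tested genes. For FFPE against frozen, 1 was higher and 7 were lower, against 37.8% of all tested genes, among them Prkci at -0.81 ± 0.15.

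Several members lie beside another claudin gene, and neighbours did not always share a pattern. Cldn3 lies 39280 bp from Cldn4. In kidney, Cldn4 had log2 values of 5.40 in FFPE and 5.49 in frozen tissue and Cldn3 had 4.96 and 6.13. In liver Cldn4 had 3.72 in FFPE and 2.86 in frozen tissue, where Cldn3 had 6.35 and 8.31. Thus Cldn3 passed as higher in liver and Cldn4, at -0.38 ± 0.40, did not. Cldn16 lies 91296 bp from Cldn1, and liver was highest at Cldn1 but followed kidney and brain by its mean at Cldn16. Cldn17 lies 53848 bp from Cldn8 and had log2 values of 2.45 in FFPE kidney and 1.55 in frozen kidney. The other libraries lay between 0.75 and 2.39, and Cldn17 did not pass in kidney. Ripply1, 18455 bp from Cldn2, passed as higher in kidney and liver against brain and heart at 3.37 ± 0.59. It had 0 reads in frozen brain, so that this difference depends on the pseudocount. Morc4, 10249 bp away on the other side, did not pass in any organ comparison. Slc2a4, a glucose transporter of muscle and fat 16563 bp from Cldn7, passed as higher in heart at 1.32 ± 0.31, where Cldn7 was at -0.36 ± 0.31. Closer still lay Elp5, 338 bp from Cldn7, Dzip1, 992 bp from Cldn10, Cdc45, 2185 bp from Cldn5, and Mettl27, 2486 bp from Cldn4. None of these passed in any organ comparison. For FFPE against frozen, Dzip1 was higher at 0.66 ± 0.21. Elp5, Cdc45 and Mettl27 were lower there, at -1.17 ± 0.15, -0.51 ± 0.16 and -0.90 ± 0.21. Tmem207, 21028 bp from Cldn16, passed as higher in kidney and liver against brain and heart at 1.38 ± 0.36, where Cldn16 did not. Noncoding genes overlap Cldn10, Cldn14 and Cldn19 in the annotation. They have no deposited values of their own, and their part in the claudin values was not tested.

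**Figure D4:**
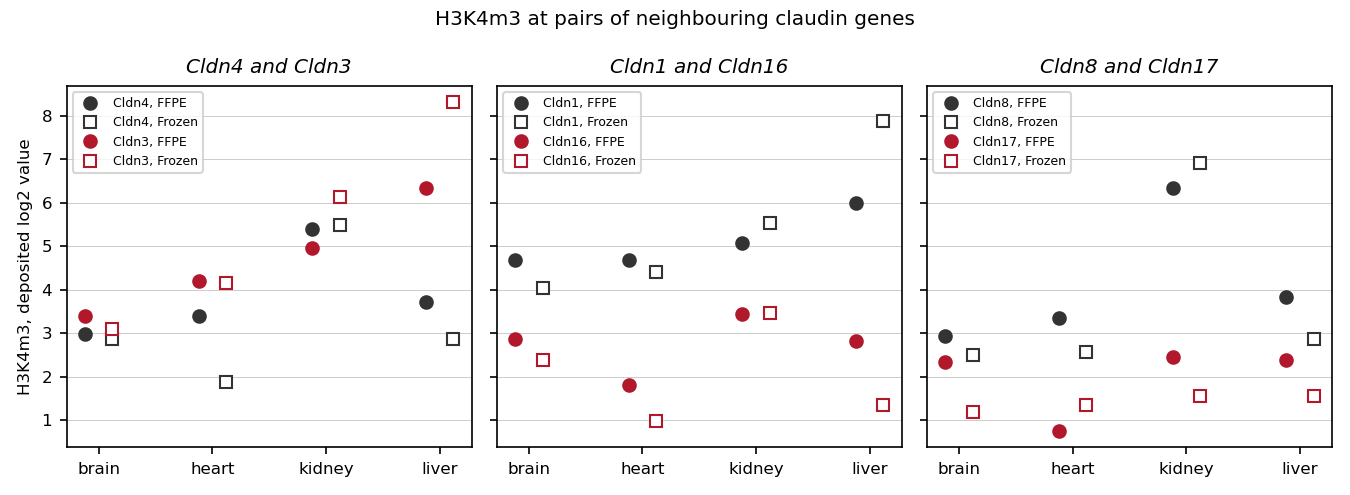
Deposited log2 H3K4m3 values by organ for 3 pairs of neighbouring claudin genes; filled circles are FFPE and open squares frozen libraries, black for the first gene of a pair and red for the second. Values are not corrected for gene length, so only the pattern over organs compares between genes: Cldn3 reaches 8.31 in frozen liver where Cldn4 is at 2.86.

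For each member the genes most like it over the 8 libraries were found by the root mean square difference (RMS) of log2 values, each centred on its own mean. For Cldn7 these were Hoxb9 and Cdh16, a kidney cadherin, at an RMS of 0.17 and 0.23, against an own RMS about its mean of 1.08. For Cldn8 they were Hoxc10 (0.32) and Kif12 (0.33), and for Cldn4 Emx2 (0.37) and Kif12 (0.38). For Cldn10 they were Emx1 (0.39) and Fxyd2 (0.48), a sodium pump subunit. For Cldn2 they were the enzymes of glucose synthesis Fbp1 (0.41) and Pck1 (0.50), both known from liver and proximal tubule. For Cldn1 they were Hs3st3b1 (0.30) and Cbs (0.30), and for Cldn14 Gpt, an amino acid transaminase of liver, at 0.17 and Rab36 at 0.22. Cldn19 was nearest to another claudin, Cldn15 (0.26), and to St6galnac2 (0.32). Cldn5 was nearest to G530011O06Rik (0.28) and Gng11 (0.29). Cldn16 was nearest to Vmn1r19 (0.24) and Olfr919 (0.25), receptor genes of the nose with low values, as Cldn16 itself had. The 8 libraries share organs and preservation, and the RMS is a description with no test.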

How the data were processed

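The authors deposited 1 table of normalized log2 values per gene for 8 libraries. The build mm10 and the tools Bowtie2, featureCounts and limma come per the submitters' processing notes, without versions. The sources used here do not say which part of a gene was counted or whether FFPE samples were merged. Chromatin was prepared differently for the 2 kinds of tissue, per the labels' protocols, and cannot be told apart from preservation. Kits of 2 makers are named without assignment to samples. A value equalled log2 of reads plus 0.5 per scaled library, and 100% of values gave whole reads within 0.001. Columns were matched to groups by organ and preservation, and taken as H3K4m3 from the titles of the series and the table. Inputs were not analysed here.

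Genes with a mean log2 value of at least 0 were tested with limma 3.58.1 in R 4.3.3 (empirical Bayes with an intensity trend, organ and preservation in 1 model, 3 residual degrees of freedom), checked on simulated reads. Other values were computed in Python 3.11.15. The alternatives were no filter, quantile normalization, centring on medians, a pseudocount of 2 reads, precision weights, no intensity trend, and leaving out each library. The members, lists and tests were chosen with earlier results of these data known. All 10 members were described. List genes were named where they passed, at most the 3 with the smallest p per list and comparison. Some of the nearest annotated neighbours and the 2 most similar genes of each member were named too. Gene positions are from a RefSeq table of GRCm38.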

Additional observations from a re-analysis of the deposited data

How the results depend on the processing

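Of the 10 claudin genes, the number passing in brain was 4 as reported, 2 with precision weights and 0 without the intensity trend (limma, 5 at an unadjusted p under 0.05). In heart it was 2, with 4 after quantile normalization and 0 without the trend (5 unadjusted). In kidney it was 5, with 0 without the trend (7 unadjusted). In liver it was 5, with 3 with precision weights and 0 without the trend (5 unadjusted). For kidney and liver against brain and heart it was 5, with 0 without the trend (6 unadjusted). For FFPE against frozen it was 0, with 1 after quantile normalization (Cldn19), 1 with centred libraries (Cldn5), 1 with a pseudocount of 2 reads (Cldn5) and 4 with precision weights. Leaving out 1 library at a time gave 0 to 6 in brain, 0 to 5 in heart, 0 to 7 in kidney, 1 to 6 in liver, 2 to 7 for kidney and liver, and 0 to 1 for FFPE against frozen. A lone library of an organ was assumed to vary like the others. Of the 60 member differences 11 changed sign in some setting, each one that had not passed as reported. With 1 library left out, FFPE differences ranged over -0.69 to 0.16 for Cldn1, -0.62 to 0.15 for Cldn14 and -0.40 to 0.66 for Cldn10, with the sign turned without either liver library. With precision weights they were -0.91, -1.05 and -0.57. After quantile normalization FFPE differences were -0.24 for Cldn10, -0.0758 for Cldn16 and -0.0319 for Cldn8, and Cldn8 was at -0.16 with precision weights. Leaving out 1 library gave -0.32 to 0.36 for Cldn1 in kidney, -0.0761 to 0.65 for Cldn10 in brain, -0.36 to 0.73 for Cldn10 in kidney and liver, and in liver -0.92 to 0.12 for Cldn16, -1.36 to 0.29 for Cldn19 and -0.53 to 0.36 for Cldn5. With centred libraries Cldn1 in kidney was at -0.00256 and Cldn5 in liver at 0.0135.

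Without the trend, 217 of all tested genes passed in brain in place of 2583, and 0 in heart, kidney, liver and kidney and liver (limma, with 3295, 2066, 4715 and 4417 at an unadjusted p under 0.05) in place of 661, 310, 2559 and 2248. In heart 1382 passed after quantile normalization and 417 with precision weights, and in kidney 838 after quantile normalization and 201 without the filter. With 1 library left out, the counts were 326 to 4291 in brain, 2 to 2097 in heart, 0 to 1033 in kidney (0 without frozen kidney, 557 unadjusted), 464 to 4832 in liver and 605 to 4535 for kidney and liver. For FFPE against frozen, 3027 genes passed as higher and 6241 as lower with centred libraries, in place of 4240 and 5477. No paired analysis was possible because the columns carry no replicate numbers. FFPE and frozen libraries were matched only through organ as a term of the model. Each group had 1 library, so no group was large enough to test for outlying libraries. Depth limits Cldn16 most, with 184 reads in all.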
